A study of Mus musculus with 2 samples.

Results

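Cytokine receptors and the JAK, STAT and SOCS genes that act behind them were followed in sorted tuft cells of the mouse small intestine. The genes were chosen by symbol, and 71 of the 17134 genes in the deposited table matched: 52 receptor chains, decoys and receptor antagonists, 4 JAK kinases, 7 STAT factors and 8 SOCS inhibitors. Cells positive for the epithelial protein EpCAM and for Siglec-F, a lectin on intestinal tuft cells, were collected by flow sorting and profiled by RNA sequencing. Spib_KO denotes cells from naive mice with floxed Spib (Spib fl/fl) and Villin-cre, and WT denotes cells from naive mice labelled Spib+Villin-cre, read here as intact Spib with Villin-cre. Cre was therefore present in both groups, and it acts throughout the intestinal epithelium and not in tuft cells alone. The labels give no age, sex or number of mice. Spi-B, the product of Spib, belongs to the ETS factors and is best known from immune cells.

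Each genotype had 1 library, with 17228684 reads assigned to genes in Spib_KO and 17925448 in WT. There was no replicate check, no test between genotypes was possible, and every value describes these libraries. The targeted gene Spib (chromosome 7, 44525995 to 44532087, GRCm38.p6) had 48 reads in Spib_KO and 6266 reads in WT, a log2 ratio of -6.95 with a 95% interval of -7.40 to -6.55. Here and below intervals follow log2 ratios in brackets and cover counting error only. All 18 tuft cell markers examined passed the filter described below and 0 were called by the 2-fold rule, while Gng13 was higher by the 1.5-fold rule, at 125 CPM in Spib_KO and 59.6 CPM in WT. They summed to 20082 CPM in Spib_KO and 20792 CPM in WT. The 11 enterocyte markers examined were measured too, and summed to 18610 CPM in Spib_KO and 16875 CPM in WT. Of these, Fabp1 gave 10611 CPM in Spib_KO and 6968 CPM in WT and was higher by the 1.5-fold rule. The ratios of 8 enterocyte markers were below 0 and those of 3 above. Values below are of whole libraries and were not assigned to a cell type. The sorting markers were close, with Epcam at 1653 CPM in Spib_KO and 1721 CPM in WT and Siglecf at 1048 CPM in Spib_KO and 953 CPM in WT. CPM are counts scaled to the size of the library.

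Cytokines bind paired receptor chains. The chains carry JAK kinases, which phosphorylate STAT factors, and the STAT factors then enter the nucleus and switch on genes. Among those genes are the SOCS inhibitors, which damp the same receptors. In the small intestine tuft cells release IL-25, and IL-13 from lymphoid cells acts back on the epithelium through IL-4R alpha, IL-13R alpha 1 and STAT6 to expand tuft cells. IL-6 family cytokines act through gp130 and STAT3, and IL-22 acts through STAT3 as well.

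The 4 lowest ratios of Spib_KO over WT were those of Socs3, Il6st (which encodes gp130), Jak3 and Stat3, and the other measured genes stayed within the 1.5-fold rule below. Of the 71 genes, 35 passed a filter of 5 CPM and 30 reads in at least 1 library, and these are called measured. A measured gene was called higher or lower in Spib_KO if the bound nearest 0 of its 95% counting interval was at least 2-fold from WT. By that rule 2 of 35 were lower, Socs3 and Il6st, against 2.18% of all 10707 measured genes. None was higher, against 2.33% of all measured genes. With a 1.5-fold bound 4 were lower, adding Jak3 and Stat3, against 5.51% of all measured genes, and 0 were higher, against 5.59%. The log2 ratio was below 0 for 20 of 35, or 57.1%, against 48.8% over all measured genes. The median log2 ratio was -0.10 for the 35 genes and 0.01 over all. The counting interval lay below 0 for 17 of the 35 genes, above 0 for 12 and around 0 for 6, against 33.8% below 0 and 35.0% above 0 over all measured genes. The depth of a gene sets the width of its interval and so enters these shares. Socs3 and Il6st passed the filter through the WT library alone and so had to differ, and the counts and median over the 35 genes are a description only. With a filter of 5 CPM in both libraries, chosen after seeing the data, 33 genes were left and 0 were called lower, while a filter on the mean CPM of both libraries kept both genes and both calls.

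**Figure D1:**
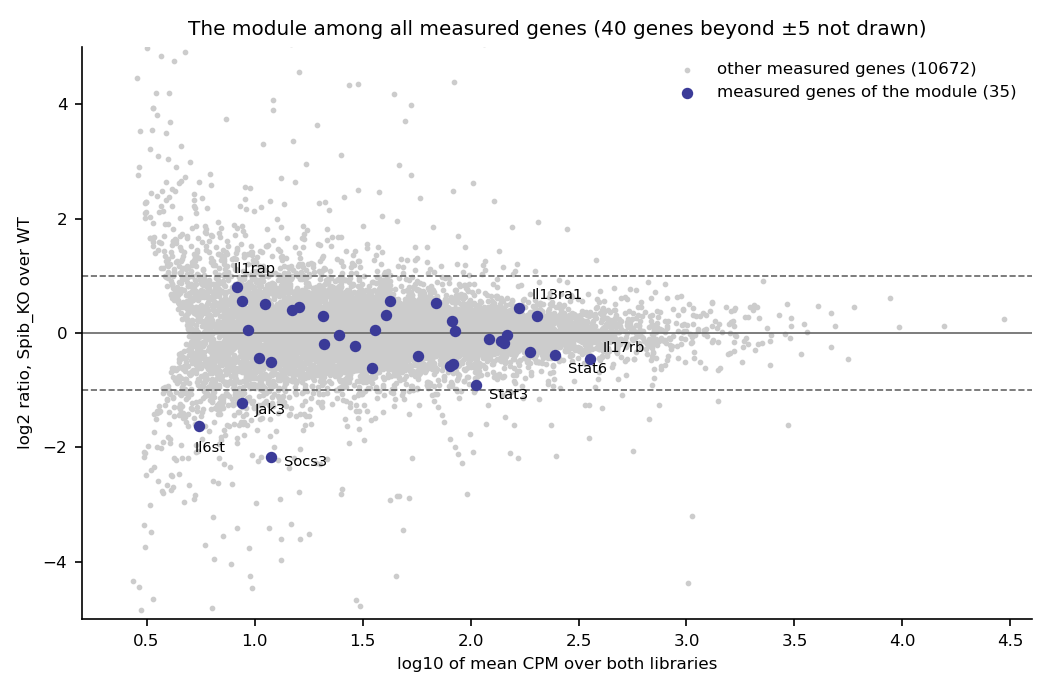
Each point is a gene, with the log10 of its mean CPM over both libraries on the x axis and the log2 ratio of Spib_KO over WT on the y axis. The 35 measured genes of the module are dark and the other 10672 grey, dashed lines mark 2-fold, and 40 genes beyond 5 on the log2 scale are not drawn. Socs3, Il6st and Jak3 lie below the lower dashed line and the remaining dark points lie between the lines.

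Of all 71 genes the IL-25 receptor chain Il17rb was the most abundant. IL-17 and IL-1 family receptors signal through adaptors other than JAK kinases and are included by their symbols. Levels of different genes are compared here only per length, in deposited TPM. Il17rb, the IL-25 binding chain, had 249 TPM in Spib_KO and 301 TPM in WT, the highest level of the 71 genes in both libraries. Its counts were 5177 and 7431 reads in Spib_KO and WT, a log2 ratio of -0.45 (-0.50 to -0.40). Its partner Il17ra, which IL-25 and IL-17A share, had 12.2 TPM in Spib_KO and 11.96 TPM in WT, with a log2 ratio of counts of 0.05 (-0.12 to 0.21). The Il17rb level was 20.4 times that of Il17ra in Spib_KO and 25.2 times in WT. Il17rc, which pairs with Il17ra for IL-17A and IL-17F, had 39.7 TPM in Spib_KO and 58.7 TPM in WT, a log2 ratio of -0.55 (-0.65 to -0.44). None of the 3 passed the 2-fold or the 1.5-fold rule, although the intervals of Il17rb and Il17rc lay below 0. Il17re and Il17rd were under the filter, at 39 and 6 reads in Spib_KO and 22 and 15 reads in WT.

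The IL-4 and IL-13 receptor chains went in opposite directions. Il13ra1, the IL-13 binding chain, had 3298 reads or 192 CPM in Spib_KO and 2551 reads or 142 CPM in WT, a log2 ratio of 0.44 (0.36 to 0.51). Il4ra, the signalling chain that IL-4 and IL-13 share, had 1107 reads or 64.5 CPM in Spib_KO and 1739 reads or 96.6 CPM in WT, a log2 ratio of -0.58 (-0.69 to -0.47). Neither was called, and both intervals exclude 0 on opposite sides. Such intervals are common here, with 33.8% below 0 and 35.0% above 0 over all measured genes. Per length, Il13ra1 stood at 4.16 times Il4ra in Spib_KO and at 2.06 times in WT. Il2rg, the common gamma chain that completes the other IL-4 receptor, had only 16 reads in Spib_KO and 22 in WT. The decoy chain Il13ra2 had 0 and 1 reads in Spib_KO and WT.

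Other chains that signal with the common gamma or common beta chain were measured, while those partners stayed under the filter. Il9r, the IL-9 binding chain, had 778 reads in Spib_KO and 653 in WT, a log2 ratio of 0.32 (0.17 to 0.47), and its level was 13.3 times that of Il2rg in Spib_KO and 9.35 times in WT. Il15ra, which holds IL-15 for presentation to neighbouring lymphocytes, had 420 and 449 reads in Spib_KO and WT, a log2 ratio of -0.03 (-0.22 to 0.17). Csf2ra, the GM-CSF binding chain, had 473 reads or 27.6 CPM in Spib_KO and 762 reads or 42.3 CPM in WT, a log2 ratio of -0.62 (-0.79 to -0.45). The common beta chain Csf2rb, through which GM-CSF signals, had 0 reads in Spib_KO and 1 in WT, and its near copy Csf2rb2 had 2 and 4. For TSLP, whose receptor joins Crlf2 and Il7r, the chains had 25 and 4 reads in Spib_KO and 55 and 0 reads in WT. Crlf2 was under the filter at 1.46 CPM in Spib_KO and 3.06 CPM in WT, a log2 ratio of -1.05 (-1.81 to -0.36).

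Interferon receptors lay near the same level in both libraries. All 5 chains were measured, and their log2 ratios ran from -0.19 to 0.30. None was called, against 2.18% lower and 2.33% higher over all measured genes, so few calls would arise among any 5 genes. The interferon gamma receptor chains were the most abundant. Ifngr1 had 86.7 TPM in Spib_KO and 96.8 TPM in WT, and Ifngr2 had 77.3 TPM in Spib_KO and 84.3 TPM in WT. Their log2 ratios were -0.14 (-0.22 to -0.05) and -0.10 (-0.19 to -0.02). The type I interferon chains Ifnar1 and Ifnar2 had ratios of 0.21 (0.11 to 0.32) and 0.30 (0.08 to 0.51). Ifnlr1, for interferon lambda, had 335 reads in Spib_KO and 402 in WT, a ratio of -0.19 (-0.41 to 0.02). Summed over the group the level was 379.9 CPM in Spib_KO and 388 CPM in WT.

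Il10rb, the chain shared by the receptors for IL-10, IL-22 and interferon lambda, was the second most abundant of the 71 genes, at 102 TPM in Spib_KO and 117 TPM in WT. Its log2 ratio was -0.18 (-0.26 to -0.10). Il22ra1, its partner for IL-22, had 169 reads or 9.85 CPM in Spib_KO and 253 reads or 14.1 CPM in WT, a ratio of -0.51 (-0.80 to -0.23). Il10ra, its partner for IL-10, had 1 read in Spib_KO and 0 in WT. Il20rb, a chain for IL-20 family cytokines, had 68 reads in Spib_KO and 20 in WT, a log2 ratio of 1.81 (1.10 to 2.63), but stayed under the filter at 3.96 CPM in Spib_KO and 1.11 CPM in WT.

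Among IL-1 family receptors the accessory chain Il1rap, shared by the receptors for IL-1, IL-33 and IL-36, alone was measured. It had 182 reads or 10.6 CPM in Spib_KO and 109 reads or 6.06 CPM in WT. The log2 ratio of 0.81 (0.46 to 1.16) was the highest of the 35 genes, and the bound nearest 0 missed both rules. The ligand-binding chains it serves had few reads, with 1, 2 and 0 reads for Il1r1, Il1rl1 and Il1rl2 in Spib_KO and 4, 1 and 7 reads in WT. The decoy receptor Il1r2 had 0 reads in Spib_KO and 33 in WT, at least 10.5-fold lower against a floor of 3 counts in the Spib_KO library. Il1rn, an IL-1 receptor antagonist that the symbol rule admits although it encodes a ligand, had 18 and 44 reads in Spib_KO and WT, a log2 ratio of -1.20 (-2.10 to -0.40). Both were under the filter.

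**Figure D2:**
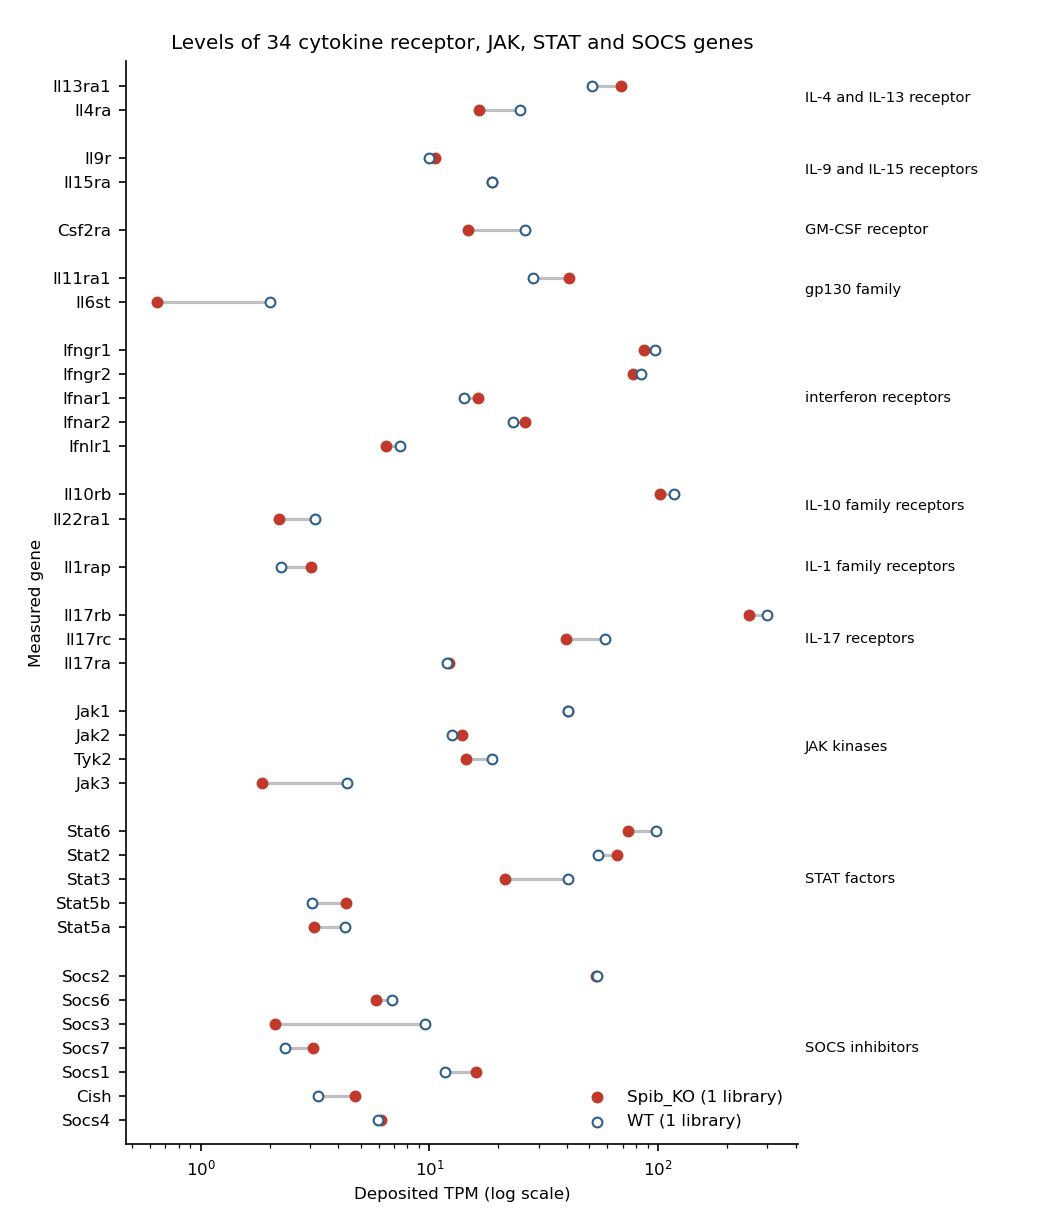
Deposited TPM on a log axis is drawn for 34 of the 35 measured genes, by role, with Spib_KO as filled points and WT as open points, 1 library each. Il17rb has the highest level in both libraries, at 249 TPM in Spib_KO and 301 TPM in WT, and Il6st, Socs3 and Jak3 show the widest gaps.

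The receptors that use gp130 were split. Il6st encodes gp130 itself, the signalling chain for IL-6, IL-11, LIF, oncostatin M and IL-27, and lies on chromosome 13 from 112464070 to 112506860 (GRCm38.p6). It had 46 reads or 2.68 CPM in Spib_KO (95% Poisson interval 1.96 to 3.58) and 150 reads or 8.33 CPM in WT (7.05 to 9.78). The log2 ratio was -1.63 (-2.15 to -1.15), which is 3.09-fold lower in Spib_KO. Il11ra1, the IL-11 binding chain, was on the other side of 0, with 868 reads or 50.6 CPM in Spib_KO and 620 reads or 34.5 CPM in WT, a ratio of 0.55 (0.40 to 0.71). Per length Il11ra1 had 40.7 TPM beside 0.64 TPM for Il6st in Spib_KO, and 28.2 TPM beside 2.01 TPM in WT. Il11ra1 may share reads with its near copy Il11ra2, and it overlaps Ccl27a, which had 75 and 131 reads in Spib_KO and WT. Other partners of gp130 had few reads. Il6ra, Lifr and Osmr had 10, 8 and 2 reads in Spib_KO and 0, 3 and 6 reads in WT.

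In bulk libraries such as these, fewer cells of a type and less RNA per cell cannot be told apart. Il27ra, the gp130 partner for IL-27 known from lymphocytes, had 0 reads in Spib_KO and 39 in WT, at least 12.4-fold lower. Of other receptors known from lymphocytes, Il12rb2, Il18r1 and Il2rb had 5, 1 and 12 reads in Spib_KO and 30, 12 and 28 reads in WT. Il21r had 16 reads in Spib_KO and 31 in WT, with an interval that includes 0 (-1.85 to 0.03). Il12rb1, Il2ra and Il7r were not lower by their intervals, with 22, 1 and 4 reads in Spib_KO and 27, 1 and 0 reads in WT. Il12rb2 overlaps the far more abundant Serbp1, with 3459 reads in Spib_KO and 3482 in WT. Markers of T cells and intraepithelial lymphocytes summed to 14.3 CPM in Spib_KO and 60.6 CPM in WT, and did not all go one way. Of 13 with values 5 were measured. Ccl5, Gzma, Cd7 and Itgae were called lower but passed the filter through WT alone, so they had to differ. Lck had 135 reads in Spib_KO and 80 in WT, a log2 ratio of 0.82 (0.41 to 1.24), and gave 7.87 CPM of the Spib_KO sum. Under the filter, Cd3d, Cd3e, Cd3g and Cd2 had 0, 3, 11 and 11 reads in Spib_KO and 20, 9, 61 and 2 reads in WT. Of 12 macrophage, monocyte and dendritic cell markers 3 were measured, with sums of 24.3 CPM in Spib_KO and 34.8 CPM in WT. Lyz2 was called lower and passed the filter through WT alone, while Adgre1 had 230 reads in Spib_KO and 135 in WT, a ratio of 0.83 (0.52 to 1.15). Itgam was above the filter in both libraries, with 94 reads in Spib_KO and 206 in WT. Its ratio of -1.06 (-1.43 to -0.70) was lower by the 1.5-fold rule but not by the 2-fold rule. C1qa, Cx3cr1 and Flt3 had 0 reads in Spib_KO and 13, 1 and 4 reads in WT, and Mrc1 had 31 reads in Spib_KO and 28 in WT. Mast cell markers, all under the filter, summed to 0.175 CPM in Spib_KO and 3.83 CPM in WT, of which Mcpt1 gave 3.28 CPM. Mcpt1 and Cpa3 had 0 and 0 reads in Spib_KO and 59 and 10 reads in WT. Ms4a2 and Tpsb2 went the other way, with 2 and 1 reads in Spib_KO and 0 and 0 reads in WT. The part of such cells in the low receptor values was not tested. Csf1r, the macrophage growth factor receptor, had 0 reads in Spib_KO and 5 in WT.

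Per length the JAK kinases had the same order in both libraries, Jak1, Tyk2, Jak2 and Jak3. Jak1, used by most of the receptors above, had 2495 reads in Spib_KO and 2690 in WT, a log2 ratio of -0.04 (-0.12 to 0.04), and made up 57.2% of the JAK TPM in Spib_KO and 53.0% in WT. Jak2, which serves GM-CSF and interferon gamma receptors among others, had a ratio of 0.52 (0.40 to 0.64) from 1395 reads in Spib_KO and 1022 in WT. Tyk2, which serves type I interferon, IL-10 and IL-12 family receptors, had a ratio of -0.41 (-0.54 to -0.28). Jak3 (chromosome 8, 71676383 to 71690577) binds the common gamma chain and is known from lymphocytes. It had 90 reads or 5.24 CPM in Spib_KO and 221 reads or 12.3 CPM in WT, a ratio of -1.22 (-1.60 to -0.87), and passed the 1.5-fold rule but not the 2-fold rule. Its share of the JAK TPM was 2.64% in Spib_KO and 5.73% in WT. Jak3 overlaps Insl3, which had 12 reads in Spib_KO and 11 in WT, and the sum of the lymphocyte markers above was lower in the same library. Their part in the Jak3 value was not tested.

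Stat3 (chromosome 11, 100886806 to 100939594) had the lowest ratio of the STAT factors. It had 1264 reads or 73.7 CPM in Spib_KO and 2478 reads or 138 CPM in WT, a log2 ratio of -0.90, 1.87-fold lower in Spib_KO. The interval bound nearest 0 was -0.80, which passed the 1.5-fold rule, and Stat3 was the most deeply counted of the 4 lower genes. Stat6, which acts behind IL-4 and IL-13, was the most abundant STAT per length, at 73.9 TPM in Spib_KO and 98.1 TPM in WT, with a log2 ratio of counts of -0.39 (-0.45 to -0.33). Stat2, which acts behind type I interferon, had 3850 reads in Spib_KO and 3302 in WT, a ratio of 0.29 (0.22 to 0.36). It overlaps Apof, which had 52 reads in Spib_KO and 89 in WT. The neighbouring genes Stat5a and Stat5b, whose products are close relatives and whose deposited counts were not whole, had ratios of -0.44 (-0.75 to -0.14) and 0.46 (0.22 to 0.71). Stat4 was under the filter, with 47 reads in Spib_KO and 19 in WT, a ratio of 1.35 (0.58 to 2.23). Stat3 made up 21.5 of 214 STAT TPM in Spib_KO and 40.5 of 256 in WT. The share of Stat2 was 30.7% in Spib_KO and 21.3% in WT.

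Socs3 (chromosome 11, 117966079 to 117970336) had the lowest ratio of the 35 measured genes. Its product inhibits gp130 receptors and JAK kinases and is itself induced by STAT3. It had 74 reads or 4.31 CPM in Spib_KO (95% Poisson interval 3.39 to 5.41) and 350 reads or 19.4 CPM in WT (17.5 to 21.6). The log2 ratio was -2.17 (-2.56 to -1.81), or 4.49-fold lower in Spib_KO. The other 6 measured SOCS genes had ratios from -0.22 to 0.55 and none passed either rule. Socs6, Socs4 and Socs7 had 462, 163 and 291 reads in Spib_KO and 564, 164 and 232 reads in WT, with ratios of -0.22, 0.06 and 0.39. Socs2 and Cish, which are known targets of STAT5, had ratios of 0.04 (-0.06 to 0.15) and 0.55 (0.22 to 0.90). Socs1, an inhibitor of interferon signalling, had 226 reads in Spib_KO and 167 in WT, a ratio of 0.50 (0.21 to 0.80). Socs2 made up most of the SOCS TPM, with 57.7% in Spib_KO and 57.2% in WT, whereas Socs3 made up 2.11 of 92.6 SOCS TPM in Spib_KO and 9.52 of 94.8 in WT. Many but not all markers of secretory epithelial cells were lower in the same library. Of 7 Paneth cell markers 6 were called lower, of which Mptx2 passed the filter through WT alone, with sums of 977 CPM in Spib_KO and 2481 CPM in WT, and of 7 goblet cell markers 3 were called lower, with sums of 1334 and 2126 CPM in Spib_KO and WT. The Paneth marker Ang4 and the goblet marker Clca1 were higher by the 1.5-fold rule, at 82.7 and 431 CPM in Spib_KO and 49.2 and 269 CPM in WT. Enteroendocrine markers summed to 41.6 CPM in Spib_KO and 136 CPM in WT. Cck, Gcg, Sst, Tph1 and Chga were called lower after passing the filter through WT alone, and Gip higher after passing through Spib_KO alone, so these had to differ. Chgb, above the filter in both libraries, had 28.7 CPM in Spib_KO and 59.1 CPM in WT, a ratio of -1.04 (-1.20 to -0.89). Their part in the Socs3, Il6st and Stat3 values was not tested.

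**Figure D3:**
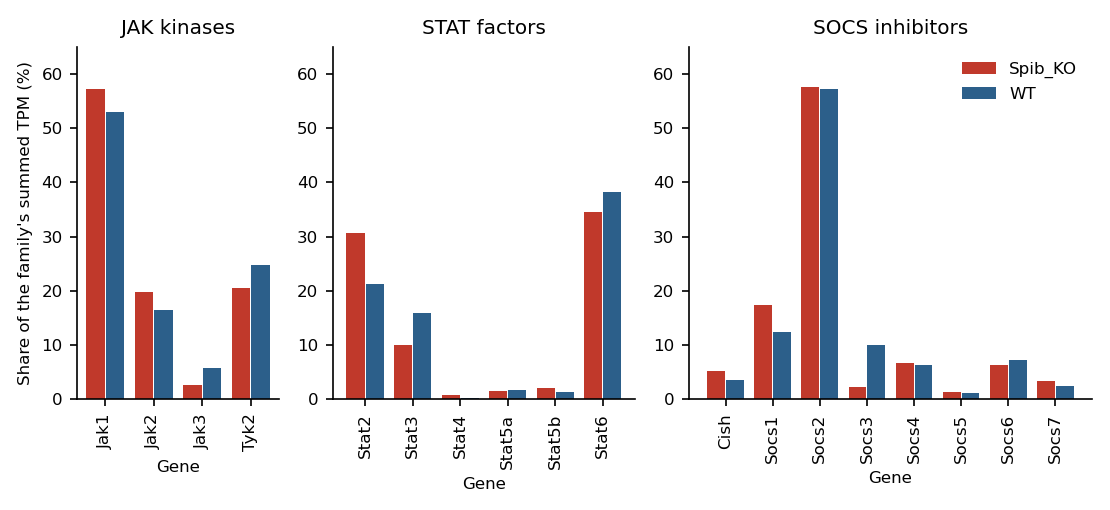
Bars give the shares of 18 of the 19 JAK, STAT and SOCS genes in the summed deposited TPM of the whole family in percent, with Spib_KO left of WT for every gene, 1 library each and no error. Jak1, Stat6 and Socs2 hold the largest shares in both libraries. The shares of Jak3, Stat3 and Socs3 are lower in Spib_KO, for Jak3 at 2.64%, against 5.73% in WT. Those of Tyk2, Stat5a, Stat6 and Socs6 are lower too, for Tyk2 at 20.4% in Spib_KO, against 24.7% in WT.

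**Figure D4:**
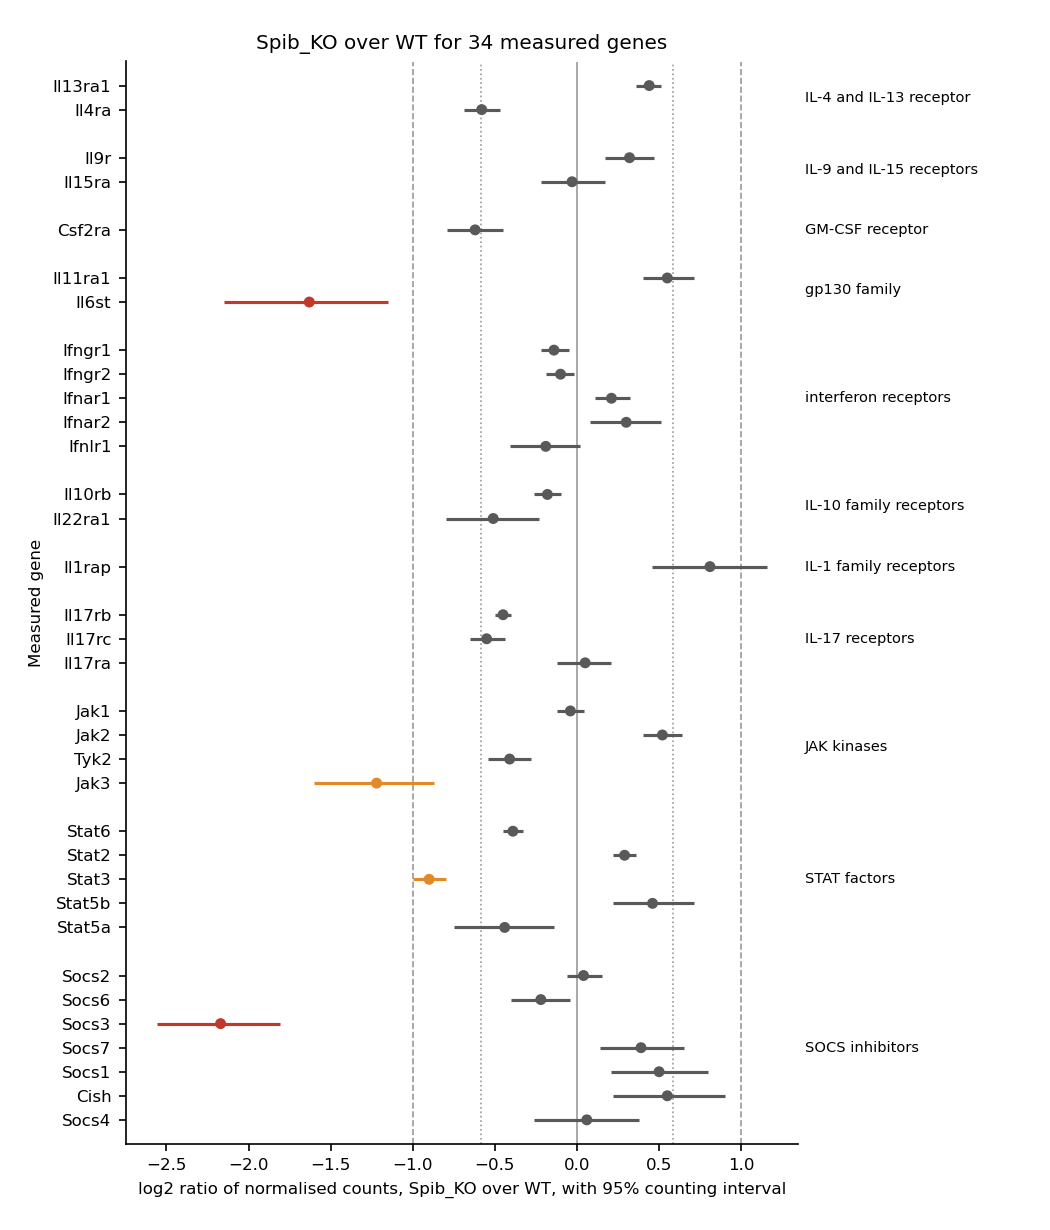
Points give the log2 ratio of normalised counts, Spib_KO over WT, with 95% counting intervals as lines, for 34 of the 35 measured genes by role. Dashed lines mark 2-fold and dotted lines 1.5-fold. The intervals of Socs3 and Il6st (red) lie wholly beyond 2-fold lower and those of Jak3 and Stat3 (orange) beyond 1.5-fold lower.

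The stretch before the start of each of these 4 genes is shown because they had the 4 lowest ratios. Each line gives bases upstream of the gene's start in the RefSeq promoter table for GRCm38.p6, 5′ to 3′ on the gene's strand, without bases that GENCODE vM21 places in an exon of the gene. Capitals mark a STAT palindrome, TTCNNNGAA, which reads the same on both strands. Socs3 is chr11:117969452-117969616 on the minus strand, Il6st is chr13:112463820-112464069 on the plus strand, Jak3 is chr8:71676133-71676295 on the plus strand and Stat3 is chr11:100939541-100939790 on the minus strand.
Socs3: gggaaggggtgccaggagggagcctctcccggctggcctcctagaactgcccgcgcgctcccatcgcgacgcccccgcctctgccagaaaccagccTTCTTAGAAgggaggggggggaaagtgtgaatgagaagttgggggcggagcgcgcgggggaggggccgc
Il6st: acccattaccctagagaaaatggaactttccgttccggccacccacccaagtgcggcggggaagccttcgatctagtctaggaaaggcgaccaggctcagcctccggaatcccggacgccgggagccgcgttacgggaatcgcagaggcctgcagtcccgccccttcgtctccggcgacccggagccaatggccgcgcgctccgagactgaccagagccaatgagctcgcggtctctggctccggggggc
Jak3: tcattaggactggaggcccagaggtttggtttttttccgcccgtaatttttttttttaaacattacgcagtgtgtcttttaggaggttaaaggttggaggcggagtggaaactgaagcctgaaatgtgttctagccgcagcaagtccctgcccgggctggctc
Stat3: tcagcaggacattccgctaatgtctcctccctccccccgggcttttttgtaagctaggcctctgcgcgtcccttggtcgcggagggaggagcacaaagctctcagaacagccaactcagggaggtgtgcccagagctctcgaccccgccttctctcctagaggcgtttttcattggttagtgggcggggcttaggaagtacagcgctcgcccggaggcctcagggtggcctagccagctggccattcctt
Socs3 holds 1 STAT palindrome, TTCTTAGAA, whose first base is 154 bases before the start used in the table. The RefSeq gene span of Socs3 reaches beyond that start, to 117970336, so the stretch printed lies inside the span of the gene and transcripts that start further upstream are annotated. The RefSeq span of Stat3, to 100939594, likewise reaches into part of the stretch printed for Stat3. The stretches of Il6st, Jak3 and Stat3 hold no STAT palindrome. Neither the STAT6 palindrome, whose arms stand 1 base further apart, nor the core of the PU box bound by PU.1 and Spi-B, GAGGAA, is in any of the 4 stretches on either strand. Of the 71 genes 58 matched the RefSeq table, with 70 promoters of 250 bases before to 50 bases after the start. The STAT palindrome was in 10 of the 70, against 8.30% of 32851 promoters, and the PU box core in 21 of 70, against 28.3%. The STAT6 palindrome was in 8 of 70, against 6.95%. Those promoters belong to 6 of the 58 genes, since overlapping promoters of Il18r1, and also of Il1rn, hold the same match. Besides Socs3, the measured genes with the STAT palindrome TTCNNNGAA were Cish, Ifnar1 and Ifnar2, whose log2 ratios were 0.55, 0.21 and 0.30.

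Listed genes of the same pathway outside the symbol rule showed few calls. Over all measured genes 2.18% were called lower, 2.33% higher and 48.8% had a ratio below 0. Of 13 measured genes on a short list of textbook STAT targets 0 were called and 10 had ratios below 0, with a median of -0.08. That list is not complete and does not speak for STAT targets in general. Reg3b and Reg3g, gut epithelial genes that it does not hold, were called lower. They had 93.4 and 208 CPM in Spib_KO and 1939 and 1905 CPM in WT, with log2 ratios of -4.38 and -3.20. Bcl3, a nuclear I kappa B protein induced by STAT3, had 222 reads in Spib_KO and 388 in WT, a log2 ratio of -0.74, while Fos, Junb and Pim3 had ratios of -0.06, -0.08 and 0.12. Of 21 measured adaptors and negative regulators 1 was called lower and 0 higher, with a median of -0.15. The lower gene was Ptpn6, which encodes the phosphatase SHP-1 that acts on JAK kinases, at 856 CPM in Spib_KO and 1958 CPM in WT. Gab1, an adaptor of gp130 and growth factor receptors, had the highest ratio of that list at 0.75. Of 12 measured adaptors of IL-1 and IL-17 receptors 1 was called higher and 0 lower, with a median of -0.04. It was Tab3, a partner of the kinase TAK1, with 93 reads in Spib_KO and 32 in WT, a log2 ratio of 1.59. Tab3 passed the filter through Spib_KO alone, so it had to differ.

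Few cytokine ligands were measured. Of 29 listed, 17 had values here and 4 passed the filter. Il18 was called lower, with 376 reads or 21.9 CPM in Spib_KO and 1028 reads or 57.1 CPM in WT, a log2 ratio of -1.38. Il33 was called lower too, with 18 reads in Spib_KO and 150 in WT, a ratio of -2.96. However, Il33 passed the filter through WT alone, so it had to differ. Tslp was called higher, at 99.4 CPM in Spib_KO and 6.22 CPM in WT, while the counts of its receptor chains are those given above. Il25, the ligand of the abundant Il17rb receptor, had 379 reads in Spib_KO and 461 in WT, a ratio of -0.21. Of 3 other measured class I receptors, Prlr, Crlf3 and Ghr, 0 were called, with ratios of -0.49, 0.46 and 0.34.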

How the data were processed

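Sorted tuft cells of 2 genotypes were profiled, with 1 library each. RNA came from TRIzol lysates and was amplified as cDNA by a Smart-seq2 type method, and a transposase made libraries that keep no strand, per the labels' protocols. HISAT, Bowtie2 2.2.3 and the build mm10 are named by the submitters' processing notes. The program that counted the reads is not given in the sources used here. The deposited table gives, per the file headers, a read count, a TPM and an FPKM value for every gene and library. Because 18.6% of genes in Spib_KO and 19.0% in WT have a count that is not whole, the deposited values were taken to be expected counts and rounded before use. No molecular identifiers are named, so copies made in amplification cannot be told from separate molecules. Intervals and floors treat every read as independent, cover counting error only and may be too narrow even for that.

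Effective library sizes were 17160543 for Spib_KO and 17996627 for WT by TMM (edgeR 4.0.16, R 4.3.3). Log2 ratios set Spib_KO over WT after adding 0.5 to each count. Their 95% intervals are exact conditional binomial, and those of CPM values exact Poisson. A count of 0 was set to a floor of 3 for bounds on folds. Without replicates no p-value is given, and size rules stand in place of a test. The procedure was tested on simulated data. The genes, lists and rules were chosen with earlier results of these data known. The rule for naming took Spib, every measured gene, singly or by range, up to 6 unmeasured partners, up to 4 called or abundant genes of each pathway list, and overlapping genes. The other unmeasured genes, Bcl3, Junb, Pim3, Gab1, Reg3b, Reg3g and marker genes were named once their values were known. Positions are from RefSeq for GRCm38.p6, the assembly behind mm10, which placed all 71 genes. The values of 1 measured gene are not reported here. Further tools were Python 3.11.15 with scipy 1.17.1, numpy 2.4.6 and pandas 2.3.3, and matplotlib 3.10.9. Alternatives were DESeq2 1.42.0 size factors, total counts, upper quartile scaling, a larger prior count, deposited TPM and FPKM, and other filters and size rules. The filters on the mean CPM and on both libraries were added after the data were seen.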

Additional observations from a re-analysis of the deposited data

How the results depend on the processing

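No paired analysis was possible because each genotype had 1 library, and for the same reason no library could be left out. Scaling by DESeq2 size factors, total counts or the upper quartile kept 2 genes lower, 4 lower by the 1.5-fold bound and 0 higher. Over all measured genes these scalings gave 2.13% to 2.22% lower, 5.40% to 5.69% lower by the 1.5-fold bound and 2.21% to 2.36% higher. A prior count of 5 could not change the numbers of genes called, because neither the intervals nor the filter use the prior. No log2 ratio of the 35 genes changed sign under these scalings or that prior count. The median log2 ratio was -0.22 to -0.04 over all alternatives. With log2(value + 1) of deposited TPM or FPKM, 1 gene was lower, Socs3, since Il6st has under 5 TPM and leaves the comparison. Over all genes kept, 2.81% were lower with TPM and 2.65% with FPKM. A CPM minimum of 20, or of 5 in both libraries, left 0 lower, because Socs3 and Il6st no longer enter. By the 1.5-fold bound 1 and 2 genes were lower under these filters. Over all genes kept, 1.38% and 0.898% were lower, and 3.99% and 3.71% by the 1.5-fold bound. Without any filter, all 71 genes gave 2 higher (Il20rb, Il6ra) and 5 lower (Socs3, Il6st, Il12rb2, Il1r2, Il27ra). Over all genes with reads 3.48% were higher and 4.18% lower. By the 1.5-fold bound 2 of the 71 were higher and 10 lower, against 6.75% and 7.67% over all. The ratio was below 0 for 43, against 50.9% over all. By the point estimate 3 genes were at least 2-fold lower (Jak3 added), 5 at least 1.5-fold lower and 1 at least 1.5-fold higher. The shares over all measured genes were 3.91%, 9.80% and 10.7%. Without genes that overlap another, 2 were lower by the 1.5-fold bound, since Stat3 and Jak3 overlap Gm46295 and Insl3. The share over all genes kept was 5.53%. Leaving out 3 measured genes known from leukocytes, Il9r, Csf2ra and Jak3, left 3 lower by the 1.5-fold bound, against 5.50% over all. Socs3 and Il6st were not among the genes left out, so their calls could not change. With TPM, Il15ra and Socs2 changed sign, and with FPKM Socs2 did. Depth limits the 36 genes under the filter, which reached at most 4.20 CPM in Spib_KO and 3.61 CPM in WT.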

Other observations

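Several receptor and kinase genes had different ratios in counts and in TPM. Centred on all measured genes, the reads per TPM of a gene differed between the libraries by more than 0.1 on the log2 scale for 5 of 34 genes with at least 1 TPM in both libraries, or 14.7%, against 9.22% of 10378 genes. The log2 ratio of Jak2 was 0.52 in counts and 0.15 in deposited TPM. That of Il1rap was 0.81 in counts and 0.44 in TPM, and that of Il9r was 0.32 and 0.09. Il17rb had -0.45 in counts and -0.27 in TPM, and Csf2ra -0.62 and -0.83. The values of Socs3, Stat3 and Jak3 were alike in both units, at -2.17, -0.92 and -1.23 in TPM. No transcript-level values were analysed here.

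Ligands of the gp130 family were low in both libraries. Lif had 27 reads or 1.57 CPM in Spib_KO and 87 reads or 4.83 CPM in WT, a log2 ratio of -1.60. Osm and Il11 had 0 and 2 reads in Spib_KO and 10 and 12 reads in WT. Ebi3, which encodes a subunit of IL-27, went the other way, with 14 reads in Spib_KO and 0 in WT. All of these genes were under the filter.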
